A study of Mus musculus with 15 samples.

Results

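Of 32285 genes counted in testis cells of adult male DBA/2J mice, 10 transcripts are described here: 4930570D08Rik, AY036118, Gm15517, Gm10076, Gmnc, Nyx, Tmsb15a, Gm31072, Tex33 and Bc1. They were matched by symbol in the gene list of the count matrices, and each symbol gave a single row. They had been picked from these same libraries as higher in recovery (R) than in untreated controls (UC), so every R against UC value below describes the choice and was not tested. The question asked was how the same transcripts stood in the vehicle mice of the recovery time (VC-R), stage by stage. JQ1 is a small molecule that occupies the bromodomains of the BET proteins, among them BRDT, the family member made in germ cells. Males were injected daily for 3 wk with JQ1 at 50 mg/kg or with vehicle (DMSO in cyclodextrin). Testes were taken right after the last dose at 10 wk of age (treatment, T, and its vehicle control, VC-T) or 6 wk later at 16 wk of age (R and VC-R). The UC males, 15 wk old, received no injection. Each of the 5 groups had 3 libraries, and each library was made from 1 testis of 1 mouse with 10x Genomics 3′ chemistry.

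Counts are unique molecular identifiers (UMIs), 1 for each captured molecule. Total UMIs ran from 9673587 in T 3 to 98724982 in R 3, and the 3 R libraries were the deepest of the 15. Cells were clustered and named from markers as spermatogonia-, spermatocyte-, spermatid- and spermatozoa-like, and UMIs were summed per library and stage. Levels are given in CPM, the usual depth-normalised unit (the UMIs of a gene relative to all UMIs of such a sum). Levels of single genes in these sums were scaled between libraries by the TMM method. Summed marker levels, levels within clusters and levels in removed barcodes were not TMM-scaled. The summed level of 6 spermatid markers (Acrv1, Izumo1 and others) was 2577 to 3175 CPM over all spermatid-like sums and at most 388 CPM over all spermatocyte-like sums. T had 0 to 3 spermatozoa-like cells per library and VC-T 1 had 0, so these libraries have no value for that stage. This set VC-T 1 apart from its group. The methods of the study left it out of differential expression on other grounds, as an outlier judged technical, and it was left out of the tests here too. No pair of libraries shared more than 0.548% of the cell barcodes of its smaller library.

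As background, spermatogenesis runs from dividing spermatogonia through meiotic spermatocytes to haploid spermatids and spermatozoa. Late spermatids compact their chromatin and largely stop transcription, so the RNA of spermatozoa-like cells is mostly RNA made earlier and kept. X-linked genes are silenced in spermatocytes, and some are transcribed again in spermatids. The transcripts fall into 4 kinds by what is known of them. Tmsb15a encodes a beta thymosin, a small protein that binds actin monomers, and Tex33 a protein of the sperm tail. Gmnc encodes GEMC1, a geminin relative that starts the multiciliated cell programme, and Nyx encodes nyctalopin, a leucine-rich repeat protein best known from bipolar cells of the retina. Bc1 is a short RNA made by RNA polymerase III and best known from dendrites of neurons, where it represses translation. The other 5 are long noncoding RNAs or predicted genes, and of these AY036118 and Gm10076 share sequence with abundant RNA species.

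In the GENCODE vM21 annotation (GRCm38/mm10), 3 of the 10 lie on chromosome X: Nyx at 13466110 to 13489313 (plus strand), 4930570D08Rik at 133898699 to 133901213 (minus strand) and Tmsb15a at 135718667 to 135725261 (minus strand). The last pair is 1817 kb apart. Gm15517 (chromosome 7, 44261447 to 44261891, plus strand) lies wholly inside Gm28496 on the same strand, so their reads may be split between them. AY036118 (chromosome 17, 39847113 to 39848035, minus strand) lies inside a ribosomal RNA gene on its own strand and opposite Gm42418, and its counts may hold fragments of ribosomal RNA. Gm10076 (chromosome 14, 105681828 to 105682211, plus strand) shares an unbroken run of 150 bases with Rpl41, a ribosomal protein gene. That run is its last 150 bases, positions 235 to 384 of a transcript of 384 bases, which is where a 3′ assay reads. Gm31072 is also on chromosome 14 (114945999 to 114947584, plus strand), Gmnc on chromosome 16 (26913553 to 26991652, minus strand) and Tex33 on chromosome 15 (78378400 to 78395912, minus strand). Bc1 (chromosome 7, 144914470 to 144914637, plus strand) is 168 bases long. Tmsb15a shared no run of more than 17 bases with Tmsb15b1, Tmsb15b2 or Tmsb15l, its relatives.

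Promoter windows from RefSeq (GRCm38.p6, 250 bases before to 50 after the start, printed along the gene's own strand) were given for 7 of the 10 genes, in 9 windows. Of these, 3 are printed because their genes carry the tested results or have a motif close to the start, and capitals mark the motifs found.
Bc1 (chr7:144914220-144914519, plus strand): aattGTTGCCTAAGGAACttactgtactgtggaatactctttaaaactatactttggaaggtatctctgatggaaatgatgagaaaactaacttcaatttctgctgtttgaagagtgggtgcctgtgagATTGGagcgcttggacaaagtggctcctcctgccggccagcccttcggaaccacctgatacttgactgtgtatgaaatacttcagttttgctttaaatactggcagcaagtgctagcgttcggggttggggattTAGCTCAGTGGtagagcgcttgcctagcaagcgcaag
Tex33 (chr15:78395863-78396162, minus strand): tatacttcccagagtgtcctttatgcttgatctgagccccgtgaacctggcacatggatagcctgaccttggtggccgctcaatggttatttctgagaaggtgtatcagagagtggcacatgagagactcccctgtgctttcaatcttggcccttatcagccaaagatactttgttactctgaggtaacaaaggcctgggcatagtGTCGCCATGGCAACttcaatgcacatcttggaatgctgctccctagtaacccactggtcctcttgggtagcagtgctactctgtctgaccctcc
Tmsb15a (chrX:135720624-135720923, minus strand): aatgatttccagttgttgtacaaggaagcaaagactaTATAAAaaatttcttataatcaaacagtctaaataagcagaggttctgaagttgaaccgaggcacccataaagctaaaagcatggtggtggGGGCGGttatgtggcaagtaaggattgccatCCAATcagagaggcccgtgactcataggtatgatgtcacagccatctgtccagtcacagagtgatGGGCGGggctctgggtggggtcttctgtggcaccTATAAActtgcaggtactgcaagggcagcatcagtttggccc
The Bc1 window held a match to the A box of RNA polymerase III genes, TAGCTCAGTGG, at position 14 after the start, inside the transcript. Its other capitals are an RFX X-box, GTTGCCTAAGGAAC, at -246 and an inverted CCAAT box at -121. Tex33 held an X-box, GTCGCCATGGCAAC, at -44, the motif bound by the RFX factors of ciliated cells and testis. Tmsb15a held GC boxes (GGGCGG) at -122 and -26, a CCAAT box at -91 and TATAAA at -213 and 9. The A box, X-box and B box were searched with some of their letters left free. On both strands of all 32851 RefSeq promoter windows, the A box was in 4.73%, the X-box in 2.17%, the GC box in 35.7%, CCAAT in 37.4% and TATAAA in 13.6%. The cAMP response element TGACGTCA (1.79% of windows) and the B box of RNA polymerase III genes (0.122%) were in none of the 9 windows. The A box letters also matched 1 Gmnc window at -1, so a match alone is a description. The windows end 50 bases after the start, so a B box further inside a transcript such as Bc1 could not be found.

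In untreated mice the 10 transcripts peaked at different stages. 4930570D08Rik, Gm15517 and Tmsb15a were highest in spermatozoa-like cells, with 423 ± 56.3, 794 ± 69.0 and 198 ± 10.9 CPM (SD, n = 3), and each had its next level in spermatid-like cells with no overlap between libraries. Tex33 was highest in spermatid-like cells (1233 ± 170 CPM, SD, n = 3) and next in spermatozoa-like cells (223 ± 10.9 CPM). Gm31072 was highest in spermatocyte-like cells (298 ± 25.8 CPM, SD, n = 3), just above spermatid-like cells (257 ± 19.8 CPM). Bc1 was highest in spermatogonia-like cells (184 ± 63.4 CPM, SD, n = 3) and lower at each following stage, at 15.6, 2.02 and 1.25 CPM, where the last 2 overlapped. AY036118 was also highest in spermatogonia-like cells (100.5 ± 22.0 CPM, SD, n = 3), and its levels at the other stages ran from 25.3 to 33.9 CPM with overlapping neighbours. Gmnc and Nyx did not separate spermatid- from spermatozoa-like cells (7.68 against 6.48 CPM, and 13.8 against 14.0 CPM). Gm10076 did not separate its leading stages either, and was lowest in spermatid-like cells (99.8 ± 10.2 CPM, SD, n = 3).

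UMIs of these transcripts were also found in macrophage-like cells. Tex33 had a UMI in 76.6% of 19835 spermatid-like cells (median 2638 UMIs per cell) and in 37.5% of 280 macrophage-like cells (median 2118.5 UMIs). For Gm15517 the shares were 94.0% of spermatozoa-like and 53.6% of macrophage-like cells, and for 4930570D08Rik they were 85.5% and 20.4%. Bc1 had a UMI in 39.5% of spermatogonia-like cells and in 1.07% of macrophage-like cells. Thinned to 1000 UMIs per cell, the Tex33 shares became 49.7% and 17.5%, and the Bc1 shares 22.4% and 0.469%. AY036118 had its highest share, 53.6%, in macrophage-like cells, and 31.3% in spermatogonia-like cells. Gmnc (7.06% of spermatozoa-like, 1.79% of macrophage-like cells) and Nyx (10.7% and 4.64%) were rarely captured anywhere. Levels of a late transcript in an early stage, or of a germ cell transcript such as Tex33 in somatic cells, may therefore include RNA from other cells. This was not tested.

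R lay above UC without overlap for 6 of the 10 transcripts in spermatogonia-like cells, 4 in spermatocyte-like, 9 in spermatid-like and 9 in spermatozoa-like cells. Over all genes passing the filter on low counts, 16.2% of gene and stage pairs did so (17.3, 7.36, 23.3 and 16.6% at these stages, in this order). Since this contrast chose the transcripts, the counts describe the choice. In the VC-R mice, which never received JQ1, 13 of the 40 values also lay above UC without overlap: 1 in spermatogonia-like, 2 in spermatocyte-like and 5 each in spermatid- and spermatozoa-like cells. All genes gave 5.38% (5.62, 4.27, 4.47 and 7.59% by stage). R lay above VC-R without overlap for 12 of the 40, by stage 3, 2, 3 and 4, and below it for 1, where all genes gave 13.1% above (8.98, 5.48, 22.1 and 13.5% by stage) and 11.4% below. These 3 comparisons share libraries, and R and UC were used in the choice, so no test was made on any of them. A single vehicle library, VC-R 1, was at or above the lowest R library for 23 of the 40 values, VC-R 2 for 14 and VC-R 3 for 9. Over all genes the shares were 64.8%, 61.9% and 58.1%. Without VC-R 1, R lay above the other VC-R libraries for 26 of the 40, where all genes gave 25.7%.

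**Figure D1:**
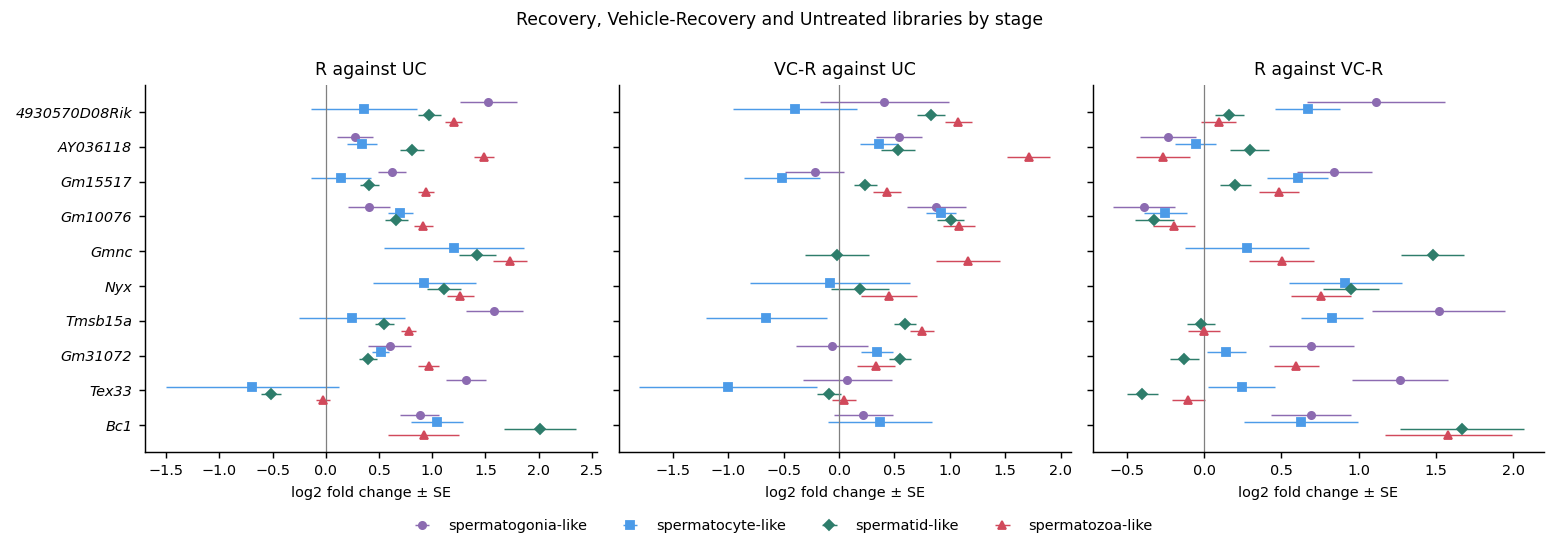
Log2 fold change with its standard error (horizontal axis) of each transcript (rows) in R against UC, VC-R against UC and R against VC-R, with colour and symbol for the stage. Points to the right of the grey line are higher in the group named first; the R against VC-R points of Gm10076 lie left of the line at every stage, from -0.39 to -0.19, and those of Nyx right of it, from 0.76 to 0.95.

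In the spermatid- and spermatozoa-like sums 4930570D08Rik and Tmsb15a, the X-linked pair, were above UC in every recovery-time library, vehicle included. In spermatozoa-like cells 4930570D08Rik had 457, 454 and 358 CPM in UC 1 to 3, 901, 975 and 842 in VC-R, and 998, 936 and 1036 in R. VC-T 2 and VC-T 3 had 683 and 883 CPM. All VC-R, R and VC-T libraries were thus above all UC libraries, and R and VC-R overlapped (log2 fold change 0.10, SE 0.113). Tmsb15a was alike: UC had 209, 187 and 199 CPM, VC-R 360, 319 and 335, R 356, 343 and 340, and VC-T 299.6 and 395. Its R against VC-R log2 fold change was 0.0018 (SE 0.104). Only UC stood apart for this transcript in spermatozoa-like cells.

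In spermatid-like cells 4930570D08Rik had 124, 135 and 88.1 CPM in UC, 207, 193 and 210 in VC-R and 224, 211 and 211 in R, so that R was above VC-R by a narrow gap (log2 fold change 0.16, SE 0.0924). Tmsb15a had 118, 132 and 105 CPM in UC, 175, 172 and 185 in VC-R and 175, 164 and 158 in R, with overlap between the recovery-time groups. The earlier stages were different for the pair. In spermatogonia-like cells Tmsb15a had 55.8, 12.0 and 4.62 CPM in VC-R and 74.6, 57.3 and 75.0 in R (log2 fold change 1.52, SE 0.432), and 29.5, 26.9 and 17.1 in UC. 4930570D08Rik had 82.1, 15.4 and 9.24 CPM in VC-R and 82.7, 56.1 and 86.7 in R there, and VC-R 1 reached into the range of R. These sums are small, with 1 to 25 UMIs of either transcript in a VC-R library and 46 to 156 in an R library. Markers of spermatozoa were likewise spread through the spermatogonia-like sums, at 1797 to 2216 CPM in R, 1249 to 1616 in UC and 861 to 2516 in VC-R, and their part in these values was not tested.

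**Figure D2:**
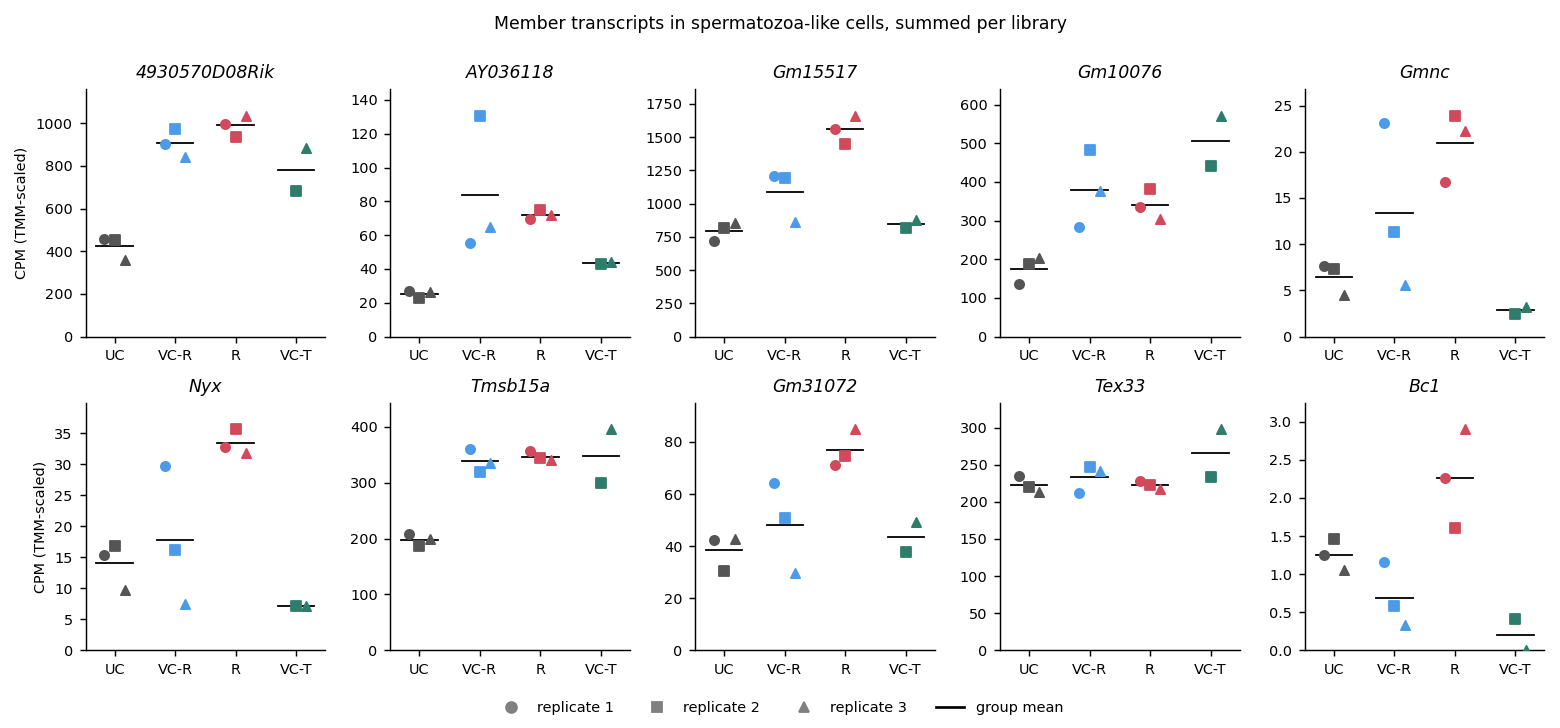
Level in CPM (vertical axis, from 0) of the 10 transcripts in spermatozoa-like cells, 1 symbol per library and a line at the group mean; T and VC-T 1 have too few such cells. For 4930570D08Rik and Tmsb15a, UC alone is low (358 to 457 and 187 to 209 CPM), while for Gm15517 R alone is high (1451 to 1661 CPM).

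Gm15517, a predicted protein-coding gene with no role named here, was higher in R spermatozoa-like cells than in every other library. UC had 717, 814 and 851 CPM, VC-R 1207, 1195 and 865, VC-T 819 and 875, and R 1561, 1451 and 1661. R was above VC-R by 0.48 on the log2 scale (SE 0.128) and VC-R above UC by 0.43 (SE 0.128), and each of these pairs of groups was without overlap. In spermatogonia-like cells R had 271, 319 and 320 CPM against 259, 139 and 83.2 in VC-R and 207, 176 and 195 in UC. In spermatid-like cells R (531, 578 and 501 CPM) and VC-R (551, 454 and 468 CPM) overlapped, and in spermatocyte-like cells R overlapped both controls.

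Gmnc and Nyx were captured in few cells and moved alike across libraries. In spermatid-like cells Gmnc had 7.94, 7.77 and 7.35 CPM in UC, 11.6, 5.37 and 6.19 in VC-R and 19.3, 21.3 and 18.5 in R. The R against VC-R log2 fold change was 1.48 (SE 0.206), and that of VC-R against UC was -0.02 (SE 0.289). Nyx had 13.7, 17.5 and 10.1 CPM in UC, 22.8, 13.1 and 10.1 in VC-R and 28.5, 30.5 and 24.9 in R, with log2 fold changes of 0.95 (SE 0.183) and 0.19 (SE 0.262). Both therefore had R above both control groups at this stage without overlap, and VC-R 1 was the vehicle library nearest to R. In spermatozoa-like cells the same library went further. Gmnc had 23.1, 11.3 and 5.57 CPM in VC-R and 16.8, 23.9 and 22.3 in R, so that VC-R 1 lay within the range of R. Nyx had 29.8, 16.3 and 7.54 CPM in VC-R against 32.8, 35.6 and 31.9 in R. At the earlier stages Gmnc had at most 10.9 CPM in any library, with 0 to 18 UMIs per UC library, and in spermatogonia-like cells neither gene passed the filter on low counts.

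Tex33 went against the choice at the stage where it is most abundant. In spermatid-like cells UC had 1242, 1397 and 1058 CPM, VC-R 938, 1236 and 1279, and R 864, 873 and 740. R was below every UC and VC-R library, by 0.52 (SE 0.0919) and 0.40 (SE 0.102) on the log2 scale. Of all genes at this stage, 27.2% lay below UC without overlap and 23.7% below VC-R. In spermatozoa-like cells the levels were 214 to 235 CPM in UC, 212 to 247 in VC-R and 217 to 228 in R, and the groups overlapped. R was higher than UC without overlap only in spermatogonia-like cells, where UC had 49.2, 53.8 and 49.9 CPM, VC-R 102, 35.9 and 23.1, and R 125, 141 and 131. Spermatid markers were summed there to 318 to 341 CPM in R, 118 to 166 in UC and 81.4 to 320 in VC-R, so that the lowest R library (318 CPM) lay just under the highest VC-R library (320 CPM), and T reached 506 CPM. In spermatocyte-like cells UC 1 alone had 189 CPM, against 20.2 and 28.3 in the other UC libraries.

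Gm31072, a long noncoding RNA, was above UC in R at all 4 stages and close to VC-R at its own stages. In spermatocyte-like cells it had 280, 286 and 328 CPM in UC, 484, 342 and 339 in VC-R and 401, 424 and 465 in R. In spermatid-like cells it had 271, 234 and 267 CPM in UC, 360, 413 and 348 in VC-R and 304, 351 and 318 in R. At both stages VC-R was above UC without overlap and R overlapped VC-R. In spermatozoa-like cells, where little of it remained, R (71.1, 74.7 and 84.8 CPM) was above VC-R (64.1, 50.8 and 29.8) and UC (42.6, 30.4 and 42.9).

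**Figure D3:**
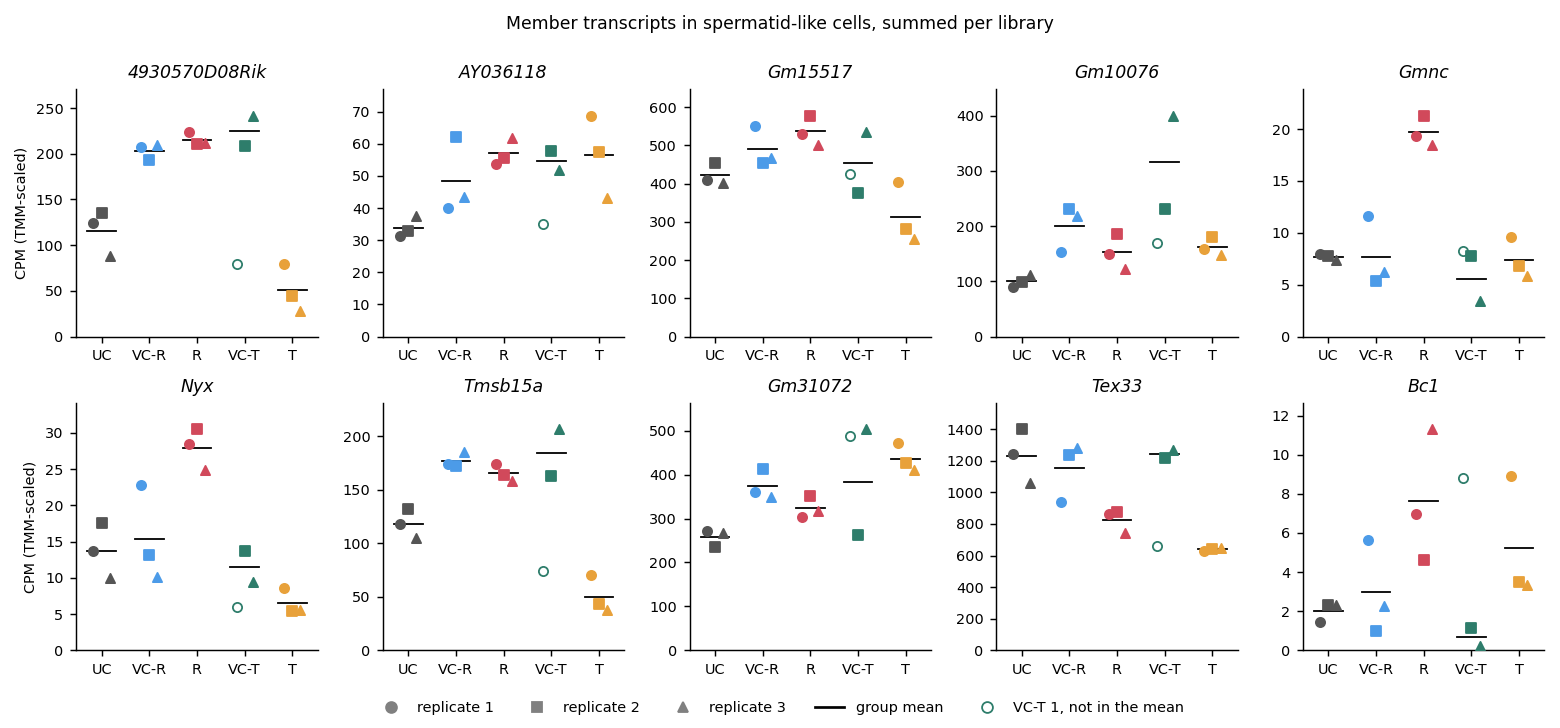
Level in CPM (vertical axis, from 0) of the 10 transcripts in spermatid-like cells in the 15 libraries, 1 symbol per library, with a line at the group mean (VC-T 1, open circle, is not in its group's mean). Gmnc is highest in the 3 R libraries (18.5 to 21.3 CPM, all others at most 11.6), while Tex33 is lower in R (740 to 873 CPM) than in UC, VC-R, VC-T 2 and VC-T 3.

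AY036118 and Gm10076, which resemble ribosomal RNA and a ribosomal protein gene, did not separate R from VC-R at any stage. In spermatozoa-like cells, where both were lowest in UC, AY036118 had 26.8, 22.5 and 26.5 CPM in UC, 55.5, 131 and 64.9 in VC-R, 69.5, 74.7 and 72.2 in R, and 43.1 and 43.8 in VC-T. Its highest library was thus a vehicle one. Gm42418, on the opposite strand, had 2108.5 to 2835 CPM in UC and 3850 to 4116 in R, and AY036118 made up 0.925 to 1.25% of the UMIs of both genes in UC, 1.66 to 1.90% in R and 1.97 to 3.33% in VC-R. Gm10076 had 136, 188 and 203 CPM in UC, 283, 482 and 375 in VC-R, 334, 383 and 303 in R, and 441 and 572 in VC-T. It was lower in R than in VC-R by 0.19 to 0.39 on the log2 scale at the 4 stages, with overlap each time.

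Since the end of Gm10076 is identical to Rpl41, its share of the UMIs of both genes was taken. In spermatid-like cells that share was 7.10 to 7.31% in UC, 12.0 to 14.9% in VC-R, 11.6 to 14.8% in R, 11.2 to 13.5% in T and 16.1 to 18.1% in VC-T. In spermatozoa-like cells it was 7.05 to 8.17% in UC, 13.5 to 16.9% in VC-R, 11.9 to 15.6% in R and 17.4 to 18.6% in VC-T. These VC-T values are of VC-T 2 and VC-T 3, while VC-T 1 had 11.8% in spermatid-like, 13.4% in spermatocyte-like and 16.9% in spermatogonia-like cells. UC was lowest and VC-T 2 and VC-T 3 were highest at all 4 stages, VC-T 1 lay within the range of R at the 3 stages where it has a value, and R and VC-R overlapped at each. Whether it reflects a transcript of its own or the way reads were divided between the genes was not tested.

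Bc1 was above UC in R at 3 of the 4 stages. In spermatogonia-like cells, its main stage, UC had 118, 244 and 190 CPM, VC-R 309, 140 and 231, and R 422, 244 and 438, with R 2 and UC 2 at the same level. In spermatocyte-like cells UC had 12.3, 19.9 and 14.7 CPM, VC-R 36.2, 9.82 and 15.3, and R 31.6, 23.9 and 41.2. R was higher than UC without overlap there, and VC-R 1 again lay in the range of R. In spermatid-like cells the level was down to 1.44, 2.30 and 2.32 CPM in UC (4 to 12 UMIs a library), 5.63, 0.995 and 2.28 CPM in VC-R (5 to 18 UMIs) and 6.97, 4.60 and 11.3 CPM in R (46 to 238 UMIs). R and VC-R overlapped there through VC-R 1. In spermatozoa-like cells R had 2.26, 1.61 and 2.90 CPM against 1.16, 0.586 and 0.328 in VC-R, and the VC-R values rest on 1 to 8 UMIs.

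The comparisons that did not choose the transcripts were T against VC-T and VC-R against VC-T, and these were tested with edgeR over all genes of a stage. To be called, a gene needed a log2 fold change beyond 1 in either direction and, after Benjamini-Hochberg adjustment, a p under 0.05. In T against VC-T (VC-T 2 and VC-T 3), 27 of the 30 values passed the filter and 7 were called, 5 higher and 2 lower in T. Among the 5, Nyx in spermatocyte-like and Bc1 in spermatid-like cells passed the filter through the T libraries alone. The filter thus favoured a higher call for them, and these calls are descriptions. Over all genes and stages 11.6% were called, 3.58% higher and 7.97% lower. By stage, 3.14% of genes were called higher and 1.89% lower in spermatogonia-like cells, 3.02% and 1.54% in spermatocyte-like cells, and 4.4% and 18% in spermatid-like cells. The transcripts' median log2 fold changes were 0.18, 0.05 and -0.65 at these stages, against -0.0038, 0.018 and 0.021 over all genes. The calls rest on VC-T 1 being left out, since with it included none of the 7 was called. Genes of the lists named below were also tested with VC-T 1 left out, and their folds were not recomputed with it.

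Bc1 was called higher in T than in VC-T 2 and VC-T 3 at all 3 stages. In spermatogonia-like cells it had 479, 230 and 237 CPM in T and 69.2 and 49.9 in VC-T, with VC-T 1, not in the test, at 543 CPM. All T libraries were above both tested vehicle libraries and below VC-T 1. The log2 fold change was 2.40 (SE 0.301, edgeR adjusted p = 0.000169). In spermatocyte-like cells it had 30.8, 15.8 and 20.9 CPM in T and 4.79 and 4.63 in VC-T (log2 fold change 2.29, SE 0.335, adjusted p = 0.00265), with VC-T 1 at 44.2. In spermatid-like cells the fold was 2.82 (SE 0.663, adjusted p = 0.00635), resting on 8 and 1 UMIs in the VC-T sums, and VC-T 1 had 8.81 CPM where T had 3.37 to 8.90. Bc1 passed the filter on low counts at this stage through T alone. Clusters with a median under 2000 UMIs per cell held 93.4 to 95.8% of the spermatogonia-like cells of T and 48.6 to 66.7% of those of VC-T 2 and VC-T 3 (90.4% in VC-T 1), and the spermatogonia-like log2 fold change was 3.55 without these clusters and 1.48 with cells of at least 3000 UMIs, called both times. With VC-T 1 in the fit, the 3 folds became 0.70, 0.22 and 0.57 and were not called. VC-T 2 and VC-T 3 lay below every UC and VC-R library in spermatogonia-like cells (UC 118 to 244, VC-R 140 to 309 CPM). The same held in spermatocyte-like cells (UC 12.3 to 19.9, VC-R 9.82 to 36.2 CPM). At both stages T overlapped UC and VC-R. In spermatid-like cells T lay above UC (1.44 to 2.32 CPM) and overlapped VC-R (0.995 to 5.63 CPM). No other RNA polymerase III transcript of a list of 9 (Rmrp, Rn7sk and others) had enough counts to be tested.

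4930570D08Rik and Tmsb15a fell in T spermatid-like cells. 4930570D08Rik had 79.5, 44.3 and 27.8 CPM in T and 209 and 242 in VC-T, with VC-T 1 at 79.3 (log2 fold change -2.08, SE 0.305, edgeR adjusted p = 0.000396). Tmsb15a had 70.1, 42.9 and 37.6 CPM in T and 163 and 207 in VC-T, with VC-T 1 at 74.4 (log2 fold change -1.82, SE 0.226, adjusted p = 0.000137). VC-T 1 stood with the T libraries for this pair, close to T 1. Cluster 8, a spermatid-like cluster with high levels of both, held 1.82 to 6.15% of the spermatid-like cells in T, 19.7 and 45.1% in VC-T 2 and VC-T 3 and 2.87% in VC-T 1, and its part in the fall was not tested. Of 6 beta thymosin genes 5 were tested at this stage and 3 fell: Tmsb15a itself, Tmsb15b1 (-1.02, SE 0.272, adjusted p = 0.0118) and Tmsb15b2 (-1.18, SE 0.161, adjusted p = 0.000254). Of all genes 18% were called lower at this stage. The list's median was -1.02, against 0.02 over all genes. At the earlier stages the pair did not pass: 4930570D08Rik had -1.22 and -1.20 (adjusted p = 0.163 and 0.0994), and Tmsb15a 0.03 and -0.09.

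Nyx was called higher in T spermatocyte-like cells than in VC-T 2 and VC-T 3 (log2 fold change 2.66, SE 0.578, edgeR adjusted p = 0.0144). These had 0.416 and 0.544 CPM (2 UMIs in each library), and T had 3.77, 2.77 and 2.24 CPM. Nyx thus passed the filter on low counts through T alone, and its call is a description. VC-T 1 had 2.23 CPM. T lay within the ranges of UC (1.17 to 5.93 CPM) and VC-R (1.57 to 6.06 CPM) at this stage. In spermatid-like cells Nyx had 8.60, 5.403 and 5.51 CPM in T and 13.7 and 9.38 in VC-T (5.96 in VC-T 1). Its log2 fold change of -0.78 (SE 0.278, edgeR adjusted p = 0.0425) did not reach the fold threshold. Gmnc was tested only in spermatid-like cells, with 0.40 (SE 0.346, adjusted p = 0.373). Of 13 multiciliation and geminin family genes, 10 were tested at that stage and 1 rose, Ccno, a cyclin relative needed for making many centrioles (2.25, SE 0.547, adjusted p = 0.00760). Of 14 small leucine-rich proteoglycans, 3 were tested in spermatid-like cells and 1 fell, Lum, which encodes the collagen-binding lumican (-1.42, SE 0.376, adjusted p = 0.0118). Of all genes at this stage 4.4% were called higher and 18% lower.

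Gm31072 rose in T spermatogonia-like cells, with 223, 163 and 109 CPM in T against 45.4 and 60.8 in VC-T and 186 in VC-T 1 (log2 fold change 1.69, SE 0.277, edgeR adjusted p = 0.00186). At its main stages it did not pass, with -0.42 in spermatocyte-like cells (adjusted p = 0.102) and 0.21 in spermatid-like cells (adjusted p = 0.468). In spermatogonia-like cells spermatid markers were summed to 219 to 506 CPM in T and 132 to 327 in VC-T, VC-T 1 included. Spermatocyte markers had 1328 to 1639.5 and 1675 to 3350 CPM there. Shares of clusters with few UMIs, given above for Bc1, also differed. The part of these differences in the spermatogonia-like values was not tested. Tex33 was close to the fold threshold in spermatid-like cells. It had 626, 643 and 645 CPM in T and 1217 and 1269 in VC-T, with VC-T 1 at 659 (log2 fold change -0.95, SE 0.0915, adjusted p = 2.59e-05). Within spermatid-like clusters 3 and 5 T overlapped VC-T 2 and VC-T 3, and in clusters 8 and 14 T lay below them, as given below. The part of the cluster shares in the lower sums was not tested. Among 18 sperm tail microtubule inner proteins, 15 were tested in spermatid-like cells and 5 fell: Tex37 (-4.20), Dusp21 (-2.90), Tekt5 (-2.07), Spaca9 (-1.76) and Tex43 (-1.03). Of all genes 18% were called lower at this stage. In spermatogonia-like cells 14 were tested, of which Tekt1 (1.18), Tekt3 (1.72) and Tekt4 (1.16) rose and Tex37 (-2.08) fell, and in spermatocyte-like cells 1 of 14 fell, again Tex37 (-2.50). Of all genes 3.14% were called higher and 1.89% lower in spermatogonia-like cells, and 1.54% lower in spermatocyte-like cells.

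In the stage sums AY036118 and Gm15517 passed the test in T at no stage. Their log2 fold changes were -0.06 to 0.08 for AY036118 and -0.51 to 0.38 for Gm15517. Within spermatid-like clusters 5 and 8 AY036118 was higher in T, as given below. Gm10076 had -0.61, -0.88 and -0.94 from spermatogonia- to spermatid-like cells, of which the last 2 had adjusted p-values under the threshold (0.00897 and 0.00328) but not the fold. The 10 ribosomal protein genes with short messages, among them Rpl41, were all tested, and 1 passed, Rpl39 in spermatogonia-like cells (-1.20, SE 0.198, adjusted p = 0.00186). Their medians were -0.43, -0.54 and -0.36 at the 3 stages. None of the tested genes of the ribosomal RNA list passed (4 of 5 tested at each stage), and of the nuclear long noncoding RNAs 1 did, Kcnq1ot1 in spermatid-like cells (-1.06, SE 0.290, adjusted p = 0.0139). Of all genes 1.89% were called lower in spermatogonia-like cells and 18% in spermatid-like cells.

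**Figure D4:**
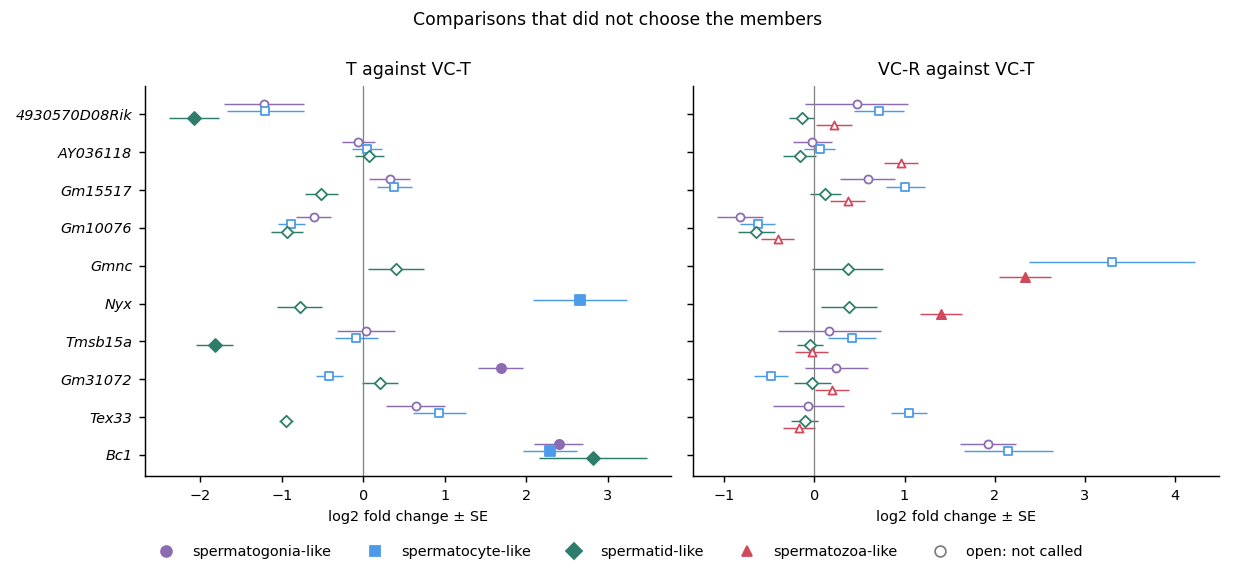
Log2 fold change with its standard error (horizontal axis) of each transcript (rows) in T against VC-T and in VC-R against VC-T, by stage; filled symbols were called and open ones were not. Bc1 is filled and right of the grey line at all 3 stages of T against VC-T (2.29 to 2.82), and in VC-R against VC-T only Gmnc (2.34) and Nyx (1.40) are filled, both in spermatozoa-like cells.

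VC-R against VC-T compared vehicle mice of both times, in which age and time since the injections cannot be told apart. Of the 40 values 35 were tested and 2 were called, both in spermatozoa-like cells, where 0.0949% of all genes were called, 0.0854% being called higher. Gmnc had 23.1, 11.3 and 5.57 CPM in VC-R and 2.49 and 3.24 in VC-T (log2 fold change 2.34, SE 0.288, edgeR adjusted p = 5.32e-12). Nyx had 29.8, 16.3 and 7.54 CPM in VC-R and 7.20 and 7.12 in VC-T (1.40, SE 0.235, adjusted p = 8.57e-06). The VC-R libraries were spread over a wide range for these genes, VC-R 3 lay close to VC-T, and DESeq2 called neither, nor any other gene at this stage. Without VC-R 1 the Nyx value was 0.83 and was not called. AY036118 had 0.96 (SE 0.188, adjusted p = 0.000556) at this stage, under the fold threshold. At the other 3 stages edgeR called no gene at all, with 790, 958 and 786 genes at an unadjusted p under 0.05, and DESeq2 called 4, 2 and 0. Bc1 came nearest among the transcripts, with 1.92 in spermatogonia-like cells (SE 0.307, edgeR adjusted p = 0.0568), and was among the 4 genes of DESeq2. Of the 8 gene lists examined, Gmnc and Nyx were the sole members called in this comparison.

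The R libraries differed from VC-R and UC in the makeup of the spermatid-like stage. Clusters with a median under 2000 UMIs per cell held 65.3 to 81.7% of the spermatid-like cells of R, 14.7 to 26.3% in UC and 10.7 to 29.4% in VC-R. Cluster 8, which had more 4930570D08Rik, Tmsb15a and Tex33 than clusters 3, 5 and 14, held 8.96 to 14.1% of the spermatid-like cells in R, 31.2 to 43.6% in UC and 28.5 to 43.5% in VC-R. The summed level of 8 Sertoli cell markers in spermatid-like cells was 81.8 to 109 CPM in R, 33.7 to 49.7 in UC and 19.1 to 61.4 in VC-R. In Sertoli-like cells, 4930570D08Rik itself had 499 to 611 CPM in R and 74.3 to 371 in VC-R. Their part in the stage sums was not tested.

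Levels were therefore also taken within clusters 3, 5, 8 and 14, each with at least 10 cells of every library. Unlike the stage sums, these levels were not TMM-scaled. In cluster 8 Tex33 had 1404 to 1472 CPM in R, 1403 to 1603 in UC and 1411 to 1462 in VC-R, and in clusters 3 and 5 the same groups overlapped too. In cluster 14, which has 27 to 84 cells in an R library, Tex33 had 595 to 683 CPM in R, 719 to 844 in UC and 613 to 779 in VC-R. R thus lay below UC without overlap in cluster 14 and overlapped VC-R in all 4 clusters. 4930570D08Rik in cluster 8 had 407 to 420 CPM in R, 156 to 193 in UC and 280.1 to 366 in VC-R. Tmsb15a had 331 to 344 CPM in R, 168 to 176 in UC and 259 to 321 in VC-R there. For this pair the order R, VC-R, UC was thus without overlap in cluster 8, where the stage sums of R and VC-R were close. In cluster 3 R also lay above VC-R without overlap, with 26.4 to 40.8 against 17.2 to 24.1 CPM for 4930570D08Rik. Tmsb15a had 51.3 to 53.5 CPM in R and 26.9 to 35.7 in VC-R there. In clusters 5 and 14 R and VC-R overlapped. Between T and VC-T 2 and VC-T 3 the ranges of 4930570D08Rik overlapped in clusters 5 (71.9 to 146 against 101.0 to 137 CPM), 8 (144 to 301 against 285 to 326 CPM) and 14, but not in cluster 3 (6.79 to 18.9 against 21.2 to 24.2 CPM). Those of Tmsb15a overlapped in clusters 3 and 5. They did not in cluster 8, where T had 146 to 221 CPM, VC-T 2 and VC-T 3 had 230.3 to 263 and VC-T 1 had 218, nor in cluster 14 (23.4 to 47.7 against 56.8 to 97.7 CPM). For Tex33 the ranges of T and of VC-T 2 and VC-T 3 overlapped in clusters 3 and 5. T was lower in cluster 8 (1232 to 1256 against 1405 to 1524 CPM) and cluster 14 (602 to 643 against 694 to 771 CPM).

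Gm15517 in R lay above all VC-R and UC libraries in clusters 3, 5 and 8, and overlapped them in cluster 14. It had 329 to 364 CPM in R and 216 to 298 in VC-R in cluster 3. In cluster 8 these were 747 to 794 and 492 to 738 CPM, and T reached 797 CPM. In cluster 5 it had 653 to 704 CPM in R, and VC-R 1 (649), T 1 (666) and VC-T 1 (673) stood with R, while the other libraries had 356 to 471. Nyx was highest in R in cluster 5 (15.2 to 24.8 CPM, where UC had 5.23 to 9.70 CPM and the VC-R libraries 6.92 to 14.8) and overlapped VC-R in the other 3 clusters. Gmnc in R lay above all VC-R and UC libraries in clusters 3, 5 and 8, and overlapped them in cluster 14. It had 13.8 to 15.2 CPM in R and 6.74 to 12.6 in VC-R in cluster 3. In cluster 5 these were 9.91 to 15.2 and 4.15 to 8.90 CPM, and in cluster 8 14.5 to 18.2 and 3.44 to 10.1 CPM. Gm10076 was lowest in UC in all 4 clusters, with 79.8 to 89.8 CPM in cluster 8 where VC-R had 130 to 185 and R 146 to 194. AY036118 in cluster 8 had 205 to 226 CPM in T (127, 34 and 15 cells in T 1 to T 3). VC-T 2 and VC-T 3 had 41.6 to 50.2 CPM there, and R 39.3 to 47.5. In cluster 5 T had 64.3 to 85.3 CPM against 36.1 to 53.4 in VC-T 2 and VC-T 3. In clusters 3 and 14 these ranges overlapped. The within-cluster differences were not tested.

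**Figure D5:**
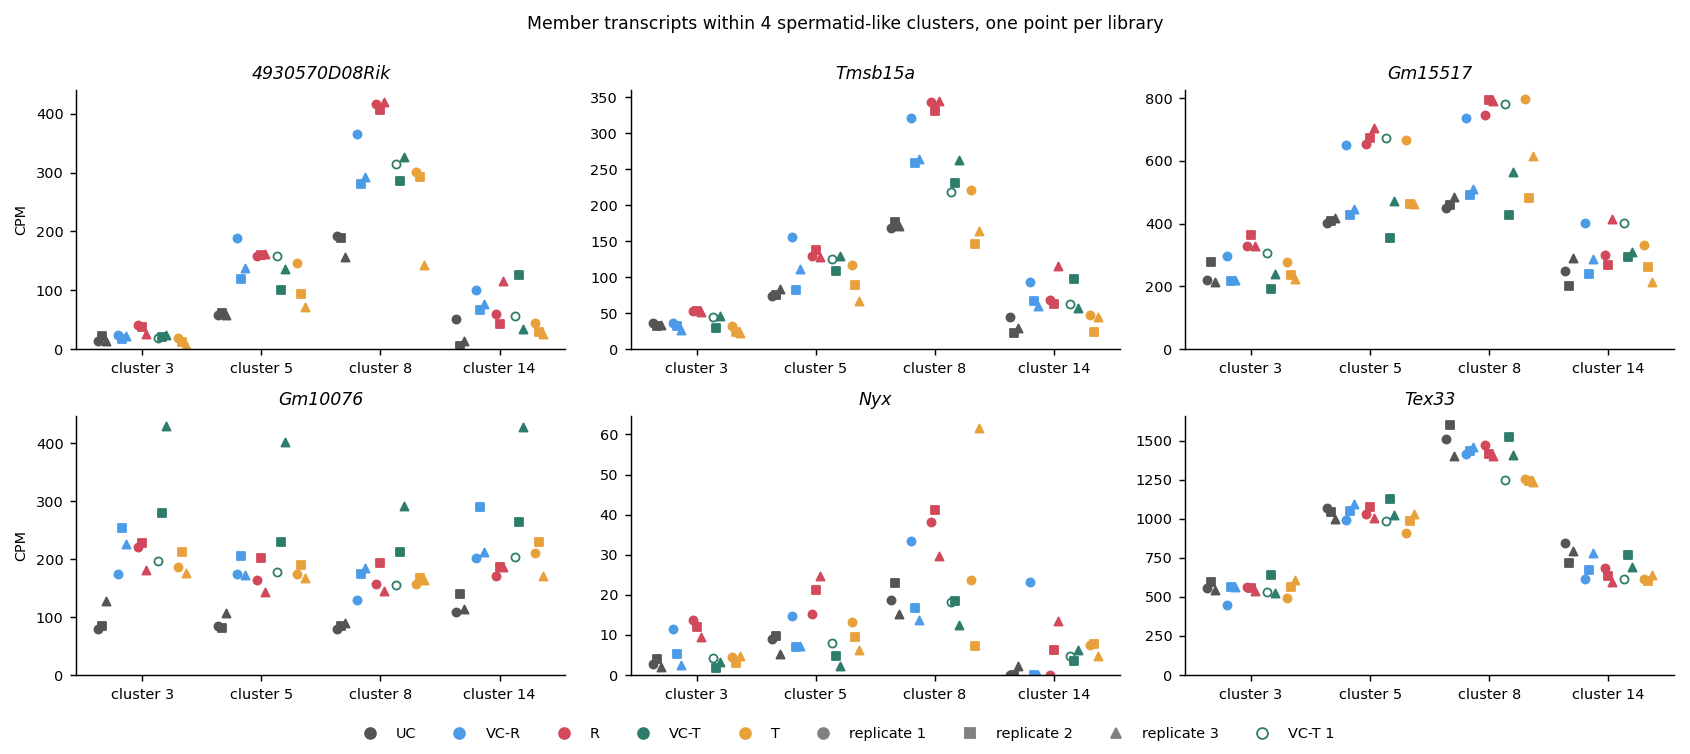
Level in CPM (vertical axis, from 0, not TMM-scaled) of 6 transcripts within spermatid-like clusters 3, 5, 8 and 14, 1 symbol per library and colours for the groups (VC-T 1 open). Tex33 in R overlaps VC-R in every cluster and lies below UC in cluster 14 (595 to 683 against 719 to 844 CPM), while 4930570D08Rik in cluster 8 is highest in R (407 to 420 CPM) and lowest in UC (156 to 193 CPM).

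To see which genes behaved most like each transcript, log2(CPM + 1) was centred within the spermatocyte-, spermatid- and spermatozoa-like stages and correlated across 41 library sums for 10753 genes. The sums of 1 library share its depth and its cells, so these are descriptions. 4930570D08Rik and Tmsb15a were among each other's nearest genes (Pearson r = 0.92), as were Gmnc and Nyx (r = 0.87), with Slc38a2, an amino acid transporter gene, nearest to Nyx (r = 0.92). Gm15517 was nearest to Odf1 (r = 0.83), which encodes a protein of the outer dense fibres of the sperm tail, and Tex33 to Rnf151 (r = 0.98), a ring finger gene. Gm10076 was nearest to Rpl35 and Rps27 (r = 0.92 each), both ribosomal protein genes. Gm31072 was nearest to Ndufb1-ps (r = 0.95), Bc1 to Pkd1l1 (r = 0.81) and AY036118 to Pfdn4 (r = 0.66). Among the 10 themselves, r ran from -0.44 (Gm10076 and Bc1) to 0.92.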

How the data were processed

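Testes of 15 mice were dissociated and captured cell by cell, 3 libraries in each of 5 groups taken from the sample labels. The deposited matrices give, for every barcode, unnormalized UMI counts of each gene. The submitters' processing notes name Cell Ranger 3.0.0 and mm10, whereas the matrix headers name Cell Ranger 7.0.0, and whether intron reads were counted is not given in the sources used here. The methods of the study place ambient RNA correction (SoupX) and doublet removal (DoubletFinder) after this step, and the deposited counts are whole numbers.

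Barcodes with at least 1000 UMIs, 500 genes and below 30% mitochondrial UMIs were kept, less the 5.4% with the highest Scrublet score in each library, which left 72362 cells. Cells were clustered on 2000 variable genes (scanpy 1.11.5, Leiden resolution 1.2), and clusters were named from fixed markers, hence "-like". UMIs were summed per library and stage where at least 10 cells were present. Sums were TMM-scaled and filtered with filterByExpr, and the T against VC-T and VC-R against VC-T comparisons were tested with the quasi-likelihood test of edgeR 4.0.16 (R 4.3.3), with Benjamini-Hochberg adjustment over all genes of a stage, two-sided. DESeq2 1.42.0, which the study used, was an alternative, with other scalings, filters, cell selections and left-out libraries. The code was tested on simulated data.

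The transcripts and the gene lists were chosen with earlier results of these data known. R, VC-R and UC were compared without a test, because R and UC had chosen the transcripts. Named genes are the 10 transcripts, the 2 genes most correlated with each among genes with a mean of at least 5 CPM, and the members of 8 lists (ribosomal RNA locus, nuclear long noncoding RNA, RNA polymerase III RNA, short ribosomal protein messages, beta thymosins, multiciliation and geminin family, small leucine-rich proteoglycans, sperm tail microtubule inner proteins) that passed a test. CPM values carry counting error in proportion to their UMIs, and the low transcripts (Gmnc, Nyx, Bc1 after meiosis) rest on few.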

Additional observations from a re-analysis of the deposited data

Results flagged for a closer look

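For 3 values every T library lay below VC-T 2 and VC-T 3 while every R library lay above every VC-R library. These were 4930570D08Rik in spermatid-like cells, where the log2 ratio of group means was -2.16 in T against VC-T and 0.085 in R against VC-R (a difference of 2.24), 4930570D08Rik in spermatocyte-like cells (-1.31 and 0.73, a difference of 2.04), and Nyx in spermatid-like cells (-0.83 and 0.86, a difference of 1.69). The differences themselves were not tested, because R was used to choose the transcripts. VC-T 1 was left out of these ratios; with it T no longer lay below its vehicle group in spermatid-like cells, where VC-T 1 had 79.3 CPM of 4930570D08Rik (T 1 had 79.5) and 5.96 CPM of Nyx (T had 5.403 to 8.60). For 4930570D08Rik in spermatid-like cells the R side is a small gap, 211 to 224 CPM against 193 to 210 CPM.

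The barcodes that the cell filters removed, 489 to 3726 a library, entered no comparison, and 3 transcripts had a signal there that was higher in every R library than in any VC-R or UC library. In removed barcodes Tmsb15a had at least 173 CPM in R and at most 139 CPM in these controls, Gm31072 at least 383 against 284 CPM, and Tex33 at least 508 against 397 CPM. Tex33 was lower in R than in these controls in the spermatid-like cells that were kept.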

How the results depend on the processing

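No result reversed. In T against VC-T, 7 values were called; 0 were with VC-T 1 included, 12 with cells of at least 3000 UMIs, 11 without clusters of median under 2000 UMIs (an alternative chosen after the data were seen), and 6 to 10 with 1 library left out. Nyx in spermatocyte-like cells was lost without VC-T 2 or VC-T 3 and in the fit of all groups. In VC-R against VC-T, 2 were called; 1 was by DESeq2 (Bc1 in spermatogonia-like cells, neither Gmnc nor Nyx), 1 in the fit of all groups, 1 with cells of at least 3000 UMIs, 7 without a filter on low counts, 4 without clusters of median under 2000 UMIs, and 2 to 4 with 1 library left out (4 without VC-R 1 and 4 without VC-R 2). The 12 values with R above VC-R became 22 by the share of cells with a UMI after thinning and 12 to 26 with 1 library left out, 26 being without VC-R 1. The cause of these shifts was not tested. Of the named folds recomputed under the alternatives, 109 kept the call and 16 lost it, and Gm31072 in spermatogonia-like cells could not be given without clusters of median under 2000 UMIs. Same-numbered libraries did not deviate together (16 of 56 pairs had r over 0.1), so the numbers do not pair them; blocked on that number, 10, 5 and 15 values passed in the 3 comparisons (for R against VC-R, higher in R in all 3 same-numbered pairs).

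With 2 tested vehicle libraries in T against VC-T, the spread of that group is poorly known, and stage sums mix clusters whose shares differ between groups. R libraries, the deepest, have less counting error for low transcripts than the controls. Age differs between UC, T and R mice.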
